A study of Homo sapiens with 15 samples.

Results

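The genes described here encode the thin filament, the Z-disc, titin and their neighbours in the sarcomere, the contractile unit of striated muscle. They were chosen by name and function, with earlier results of these data known, and myosin heavy chains were left out. All 49 were found among the 17999 gene symbols of the deposited table. They comprise 17 thin filament genes, 6 myosin light chains, 7 genes of titin, the thick filament and the M-band, 13 genes of the Z-disc and cytoskeleton, and 6 genes of sarcomere assembly and turnover. Messenger RNA was measured in 15 bulk cultures of 2 established human embryonic stem cell lines, H1 and HUES9, all of WT genotype. For each line there was 1 library of self-renewing neuromesodermal progenitors (srNMPs, precursors of both spinal cord and trunk muscle) at passage 8 and at passage 25, of neuron progenitors at day 7 of the protocols labelled RABC and RASS (not spelled out in the labels), of dorsal neurons and of ventral neurons. Skeletal muscle was represented by 1 HUES9 library at day 40 and 1 at day 50, and undifferentiated embryonic stem cells (ESCs) by 1 HUES9 library. The labels give neural induction as the treatment of the srNMPs, neuron progenitors and neurons, skeletal muscle induction for muscle, and no induction for the ESCs.

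In a sarcomere, thin filaments of actin, tropomyosin and the troponin complex slide along thick filaments of myosin. Calcium binding to troponin C, relayed through troponins I and T, shifts tropomyosin on actin and lets myosin bind. Z-discs, built on alpha-actinin, anchor the thin filaments, and titin spans from the Z-disc to the M-band. Several of these proteins exist as separate fast skeletal, slow skeletal or cardiac isoforms, and forms named for the heart or for slow fibres are also made in embryonic skeletal muscle.

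Values are FPKM (fragments mapped to a gene, scaled to its length and to the mapped fragments of the library), which can be set side by side between genes of one library because they are per length. The FPKM listed summed to 290306 to 421109 per library, and the relative depth of the libraries, read from their smallest steps, ran from 0.954 to 1.05. Read counts were not analysed here, so no counting interval is given. The 49 genes together took 4.82% of the summed FPKM of the day 40 muscle library and 6.57% of that at day 50, against 0.0759% to 0.120% in the 13 other libraries. Lower RNA per cell and fewer cells of a type cannot be told apart in such bulk cultures. The muscle libraries also held 18582 FPKM at day 40 and 11437 FPKM at day 50 of 8 fibroblast and connective tissue markers in sum, COL1A1 (type I collagen) at 8504 and 4699.9 FPKM among them; the part of such cells in the results was not tested.

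**Figure D1:**
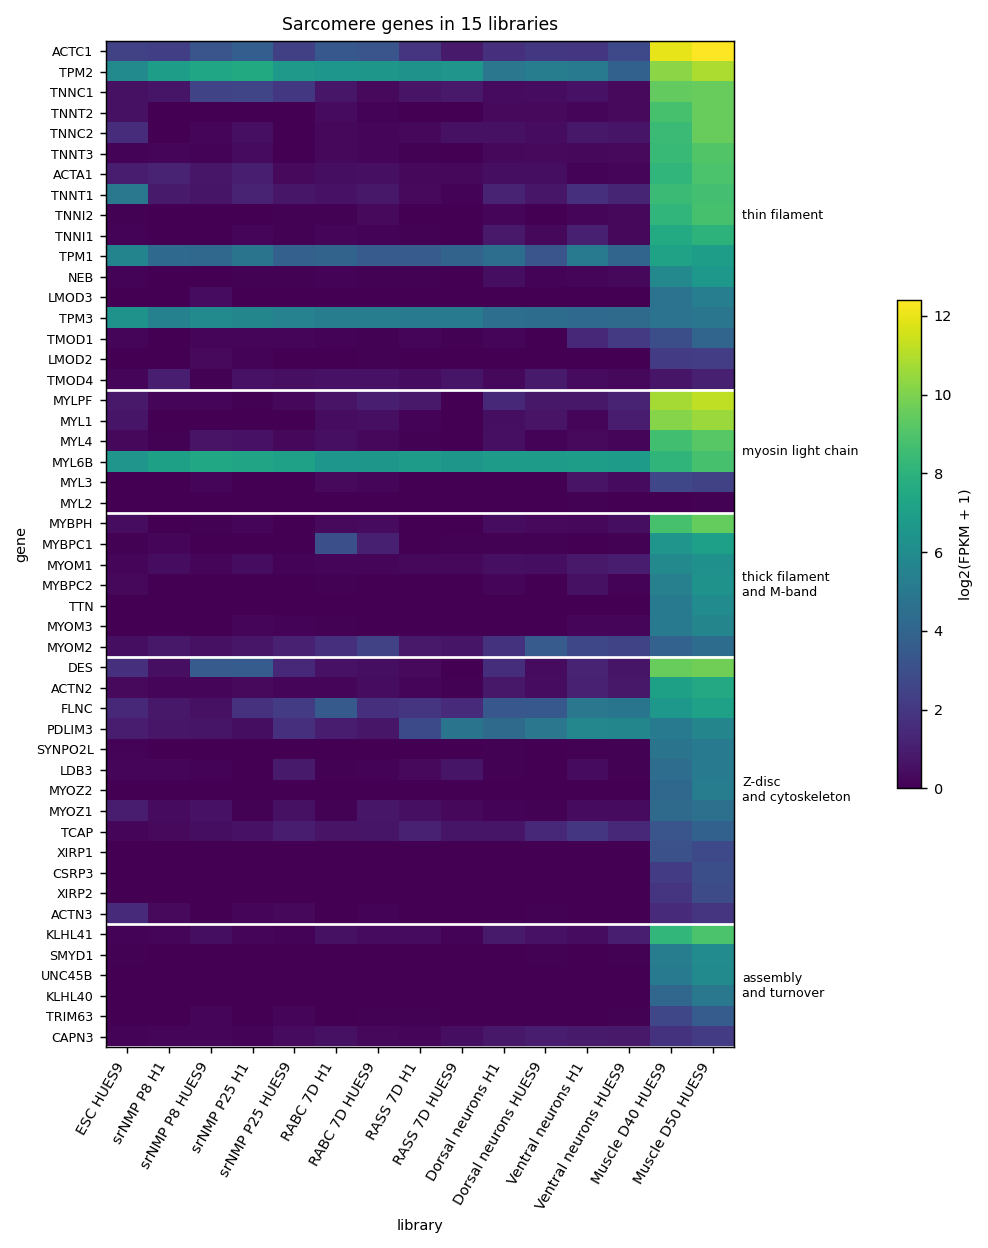
Level of the 49 sarcomere genes as log2(FPKM + 1), by colour, in the 15 libraries (columns, named by group and cell line), with genes ordered by mean muscle level within 5 functional groups separated by white lines. The 2 muscle columns at the right are the brightest for nearly all genes, while TPM2, MYL6B, TPM3 and TPM1 are also well above 0 in all other columns.

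Nearly all sarcomere genes were higher in muscle than in the srNMPs. Of 49 genes, 48 reached 1 FPKM in at least 1 library and were tested; MYL2, the slow and ventricular regulatory light chain, reached at most 0.0382 FPKM and was not. In muscle, 46 were higher and 1, TPM3, was lower than in srNMPs, where 18.2% of all 14129 genes tested were higher and 31.6% lower (limma, adjusted p under 0.05). The median log2 difference was 5.42 for the sarcomere genes and -0.22 for all genes tested. Of the 48, 24 passed the filter only through the muscle libraries and so had to differ. Among them are TNNT2, NEB, MYL1, MYBPH, SMYD1 and UNC45B, so the adjusted p-values given for these below carry that limit. Of the 24 that reached 1 FPKM elsewhere too, 22 were higher, 1 was lower and 1, TMOD4, was not called. Against neurons, 45 were higher and 0 lower in muscle, against 14.6% higher and 31.9% lower among all genes. TPM3, TMOD4 and PDLIM3 did not pass. Here the 24 that reached 1 FPKM outside muscle gave 21 higher, 0 lower and 3 not called. Both muscle libraries lay above all 13 others for 45 of the 48, as they did for 11.1% of all genes tested. For the 24 that passed the filter only through muscle, this order was largely set by the filter. The 2 comparisons share the muscle libraries, and since each day is 1 library, the standard errors come from the other groups and do not measure variation between muscle cultures. Medians of log2 differences depend on the pseudocount: with 0.1 in place of 1, the 48 genes had medians of 7.98 against srNMPs and 7.92 against neurons.

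Stretches of 250 bases before the RefSeq start sites (build GRCh38.p14) were read for 35 of the 49 genes, in 47 windows. Serum response factor binds the CArG box and MEF2 proteins bind the MEF2 box, both found in many muscle genes; the myogenic factors bind E-boxes. A CArG box was present in 5 of the 47 windows (10.6%; ACTA1, ACTC1, MYOM1 and a pair of overlapping LDB3 windows that share one box), against 1.16% of all 35116 windows of this length. A MEF2 box was present in 8 windows (17.0%; CAPN3, KLHL40, KLHL41, MYL1, MYOZ2, SYNPO2L, TTN and XIRP2), against 0.515% of all. The E-box CANNTG was found in 74.5% of the windows against 61.8% of all, its form CAGCTG in 29.8% against 14%, and TATAAA in 19.1% against 10.7%. Both strands were searched, and the only overlaps between motifs were those of CAGCTG with CANNTG, of which it is a case. Such matches describe the letters only and show no binding. The windows of the 2 sarcomeric actins are shown because ACTC1 was the most abundant of the 49 genes and both hold a CArG box at a like distance from the start; capitals mark the box. They lie at chr1:229434095-229434344, minus strand, and at chr15:34795550-34795799, minus strand, and end at the base before the start.
ACTA1: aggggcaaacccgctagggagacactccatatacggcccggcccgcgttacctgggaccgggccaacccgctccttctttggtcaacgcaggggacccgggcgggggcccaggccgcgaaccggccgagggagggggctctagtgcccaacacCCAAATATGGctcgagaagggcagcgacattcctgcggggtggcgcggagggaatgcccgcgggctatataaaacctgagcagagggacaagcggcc
ACTC1: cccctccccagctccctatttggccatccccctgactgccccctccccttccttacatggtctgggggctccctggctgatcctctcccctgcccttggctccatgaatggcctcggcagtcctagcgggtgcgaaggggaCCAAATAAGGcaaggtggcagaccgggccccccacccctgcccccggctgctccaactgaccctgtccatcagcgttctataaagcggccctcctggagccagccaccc
The CArG box lies at bases -97 to -88 in ACTA1 and at -109 to -100 in ACTC1, counted from the start site, and the TATAAA that follows begins at -30 and -31. For ACTC1, 3 start windows are listed in RefSeq and the box lies in 1 of them.

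TTN, for its role as the backbone of the sarcomere, and MYOZ2, for the largest log2(FPKM + 1) difference between the muscle days, are shown as examples of the MEF2 box, again in capitals. Their windows lie at chr2:178807424-178807673, minus strand, and at chr4:119135582-119135831, plus strand.
TTN: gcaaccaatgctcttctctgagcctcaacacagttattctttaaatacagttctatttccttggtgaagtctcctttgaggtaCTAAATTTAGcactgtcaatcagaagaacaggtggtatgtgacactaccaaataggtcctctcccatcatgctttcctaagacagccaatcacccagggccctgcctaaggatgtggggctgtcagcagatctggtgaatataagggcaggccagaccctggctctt
MYOZ2: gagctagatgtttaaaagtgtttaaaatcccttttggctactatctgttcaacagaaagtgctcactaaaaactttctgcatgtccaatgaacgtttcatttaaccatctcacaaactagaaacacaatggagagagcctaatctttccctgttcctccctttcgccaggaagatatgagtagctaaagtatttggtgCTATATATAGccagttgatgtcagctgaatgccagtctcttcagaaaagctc
In TTN the box lies far from the start site, at -167 to -158, and in MYOZ2 near it, at -52 to -43. KLHL40, KLHL41 and CAPN3 also held theirs within the 63 bases before the start, at -30 to -21, -63 to -54 and -54 to -45.

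**Figure D2:**
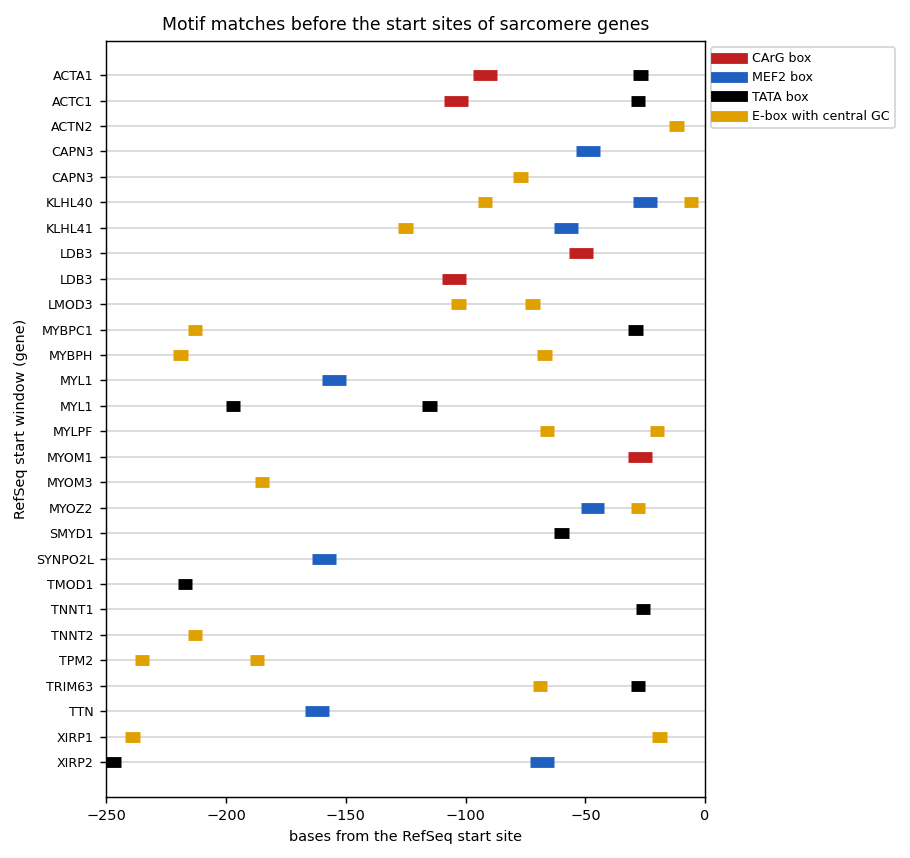
Position of motif matches, in bases from the RefSeq start site (at 0, right), in the start windows of sarcomere genes that hold at least 1 of the 4 motifs drawn; each grey line is 1 window of 250 bases and genes with several windows appear more than once. CArG boxes (red) of the sarcomeric actins lie near -100 with a TATA box (black) near -30, and MEF2 boxes (blue) lie between -167 and -21.

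Of the sarcomeric actins, the core of the thin filament, ACTC1 (alpha-cardiac actin, also the main form of embryonic skeletal muscle) was by far the higher. It stood at 3977 FPKM at day 40 and 5456 FPKM at day 50, rank 3 and rank 1 among all genes, and at 0.861 to 12 FPKM (median 4.12) in the 13 other libraries. Its log2 difference to srNMPs was 9.31 ± 0.52 (SE; adjusted p = 1.23e-05). ACTA1 (alpha-skeletal actin, the form of adult fibres) was at 292 FPKM at day 40 and 476 FPKM at day 50 and at 0.0981 to 1.32 FPKM (median 0.379) elsewhere. It exceeded srNMPs by 7.80 ± 0.21 (SE; adjusted p = 2.14e-07) and neurons by 8.32 ± 0.21 (SE; adjusted p = 1.53e-07) on the log2 scale. Neither gene's muscle values overlapped those of any other library. ACTC1 made up 84.3% of the 4 alpha- and gamma-type muscle actins (ACTA1, ACTC1, ACTA2, ACTG2) at day 40 and 87.5% at day 50; their coding sequences are close to identical and how reads shared between them were counted is not given in the sources used here, so this split is uncertain.

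The troponin genes covered all 3 subunits and both fibre types. For troponin T, which ties the complex to tropomyosin, the heart-named TNNT2 was the highest, at 449 FPKM at day 40 and 749 FPKM at day 50. The 4 srNMP libraries list it at 0, and it passed the test against them (adjusted p = 2.38e-08). TNNT2 passed the filter only through muscle and so had to differ. TNNT3, the fast form, stood at 345 FPKM at day 40 and 518 FPKM at day 50, against 0 to 0.29 FPKM (median 0.148) in the other libraries. TNNT1, the slow form, was at 354 FPKM at day 40 and 411 FPKM at day 50. Outside muscle, TNNT1 was highest in the ESCs, at 30.0 FPKM, and at 0.0979 to 2.31 FPKM in the other 12 libraries. Among the 3 genes the shares were thus 39.1% TNNT2, 30.8% TNNT1 and 30.1% TNNT3 at day 40, and 44.6%, 24.5% and 30.9% at day 50.

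Troponin I, the inhibitory subunit, came from TNNI2 (fast) at 288 FPKM at day 40 and 452 FPKM at day 50, and from TNNI1 (slow) at 189 FPKM at day 40 and 258 FPKM at day 50. The cardiac gene TNNI3 was at only 0.171 FPKM at day 40 and 0.106 FPKM at day 50. Elsewhere TNNI2 ran over 0 to 0.233 FPKM (median 0.0343) and TNNI1 over 0 to 1.12 FPKM (median 0.106). The calcium sensor troponin C came from TNNC1 (slow and cardiac) at 689.6 FPKM at day 40 and 728 FPKM at day 50, and from TNNC2 (fast) at 355 FPKM at day 40 and 737 FPKM at day 50. TNNC1 was nearly level between the days while TNNC2 was 2.08 times as high at day 50. Against srNMPs, the log2 differences were 8.84 ± 0.20 (SE; adjusted p = 8.69e-08) for TNNC2 and 7.45 ± 0.50 (SE; adjusted p = 3.18e-05) for TNNC1. The larger error of TNNC1 goes with its spread in the srNMPs, at 0.607 and 5.03 FPKM in the H1 srNMPs at passages 8 and 25 and 4.76 and 3.03 FPKM in the HUES9 srNMPs; 3 of the 4 libraries were well above the remaining one.

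Tropomyosins, the coiled rods that lie along actin, behaved unlike each other. TPM2 (beta-tropomyosin) was the main form in muscle, at 1235 FPKM at day 40 and 1919 FPKM at day 50, or 81.9% and 89.9% of the summed TPM1, TPM2, TPM3 and TPM4. It was also at 13.2 to 183 FPKM (median 88.6) in the other libraries and exceeded srNMPs by 3.59 ± 0.39 (SE; adjusted p = 0.000387), a call lost with only the libraries compared (adjusted p = 0.0501). TPM1 was at 141 FPKM at day 40 and 124 FPKM at day 50, above the 8.53 to 46.8 FPKM (median 15.8) elsewhere, and was 1 of 3 sarcomere genes lower at day 50 than at day 40. TPM3, whose gene makes both a slow-fibre and a cytoplasmic form, was at 25.7 FPKM at day 40 and 28.1 FPKM at day 50. In srNMPs it stood at 43.4 and 51.7 FPKM in the H1 srNMPs at passages 8 and 25 and 58.9 and 44.3 FPKM in the HUES9 srNMPs, all above both muscle libraries, and the log2 difference was -0.85 ± 0.16 (SE; adjusted p = 0.0039). Fitted with the srNMP and muscle libraries alone, that call was lost (adjusted p = 0.146). In the 4 neuron libraries it stood at 18.1 to 21.2 FPKM, all below muscle, a log2 difference of 0.45 ± 0.16 (SE; adjusted p = 0.0522) that did not pass. That call is close to the threshold and passed under 5 of 14 alternatives. Gene-level values do not separate the muscle and cytoplasmic transcripts of TPM1, TPM2 and TPM3.

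NEB, the giant ruler of thin filament length, was at 55.9 FPKM at day 40 and 98.1 FPKM at day 50 and at 0.0121 to 0.397 FPKM (median 0.0516) elsewhere, higher than in srNMPs by 6.22 ± 0.12 (SE; adjusted p = 4.99e-08). Genes of the pointed-end and nucleation proteins were much lower. LMOD3, a leiomodin that seeds actin filaments, was at 25.5 FPKM at day 40 and 38.2 FPKM at day 50, and LMOD2, its heart-enriched relative, at 3.46 FPKM at day 40 and 3.78 FPKM at day 50. TMOD1, a tropomodulin that caps the filament, was at 6.84 FPKM at day 40 and 15.5 FPKM at day 50, and reached 1.61 and 3.28 FPKM in ventral neurons. TMOD4, the skeletal muscle tropomodulin, was at 0.631 FPKM at day 40 and 1.12 FPKM at day 50, where the other libraries spanned 0.0668 to 1.04 FPKM (median 0.445); day 40 lay inside that range and day 50 just above it.

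Myosin light chains, which brace the lever arm of the myosin head, include 2 of the 4 most abundant of these genes. MYLPF, the fast skeletal regulatory light chain, was at 1684 FPKM at day 40 and 2403 FPKM at day 50 and at 0.0318 to 1.71 FPKM (median 0.737) elsewhere. Its log2 difference to srNMPs, 10.82 ± 0.32 (SE; adjusted p = 3.13e-07), was the largest of the 48. MYL1, the fast essential light chain, was at 1144 FPKM at day 40 and 1495 FPKM at day 50; it was listed at 0 in all 4 srNMP libraries (adjusted p = 4.99e-08) and reached at most 0.941 FPKM elsewhere. MYL4, the embryonic and atrial light chain, was at 406 FPKM at day 40 and 581 FPKM at day 50, against 0 to 0.561 FPKM (median 0.199) in the other libraries. MYL3, the slow and ventricular essential chain, was only at 5.24 FPKM at day 40 and 4.23 FPKM at day 50, and MYL2 at 0 and 0.0382 FPKM. MYL6B, an essential chain of slow muscle and of non-muscle cells, was at 275 FPKM at day 40 and 439 FPKM at day 50 but already at 87 to 176 FPKM (median 115) in the other libraries. The log2 difference of MYL6B to srNMPs was 1.23 ± 0.15 (SE; adjusted p = 0.000734), and the call was lost when only the libraries compared were fitted (adjusted p = 0.121).

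TTN, whose product titin is the spring of the sarcomere, was at 35.3 FPKM at day 40 and 63 FPKM at day 50. In srNMPs it was at 0.000238 and 0 FPKM in the H1 srNMPs at passages 8 and 25 and 0 and 0 FPKM in the HUES9 srNMPs, and in neurons at 0.0137 to 0.0216 FPKM. The antisense transcripts of TTN could not be set apart, since the strand setting of the counting is not given in the sources used here. Among the myosin binding proteins, MYBPH was the most abundant at 442 FPKM at day 40 and 725 FPKM at day 50, or 77.4% and 77.5% of the family. It lay at 0 to 0.363 FPKM (median 0.193) in the other libraries, and its log2 difference to srNMPs was 9.06 ± 0.14 (SE; adjusted p = 2.38e-08). MYBPC1 (slow) stood at 88.1 FPKM at day 40 and 129 FPKM at day 50, and MYBPC2 (fast) at 41.2 FPKM at day 40 and 81.6 FPKM at day 50; elsewhere MYBPC2 lay at 0 to 0.479 FPKM (median 0.0159). MYBPC3, the cardiac gene of the family, was listed at 0 in both muscle libraries. The myomesins cross-link myosin at the M-band. MYOM1 was at 55.7 FPKM at day 40 and 74 FPKM at day 50 and at 0.0927 to 0.926 FPKM (median 0.202) elsewhere, and MYOM3 at 33.9 FPKM at day 40 and 49.2 FPKM at day 50. MYOM2 was lower, at 13.7 FPKM at day 40 and 19.9 FPKM at day 50, and was called against srNMPs with a difference of 3.13 ± 0.44 (SE; adjusted p = 0.00115). Against neurons its difference was 1.29 ± 0.44 (SE; adjusted p = 0.0452), a call that was lost in 8 of 14 alternatives, where the adjusted p reached 0.243; among them, leaving out either HUES9 or H1 ventral neurons, or either muscle day, gave differences from 1.04 to 1.54.

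At the Z-disc, ACTN2, the alpha-actinin of all striated muscle, was at 131 FPKM at day 40 and 181 FPKM at day 50, against 0.0645 to 1.24 FPKM (median 0.24) elsewhere, and exceeded srNMPs by 7.12 ± 0.17 (SE; adjusted p = 9.54e-08). ACTN3, the alpha-actinin of fast fibres, was at 1.88 FPKM at day 40 and 2.71 FPKM at day 50, against 1.75 FPKM in the ESCs. The most abundant gene of the group was DES, the intermediate filament desmin that ties Z-discs together, at 733 FPKM at day 40 and 843 FPKM at day 50. It was also present in some srNMP libraries, at 0.425 and 11.3 FPKM in the H1 srNMPs at passages 8 and 25 and 10.8 and 1.63 FPKM in the HUES9 srNMPs. The log2 difference to srNMPs was 7.46 ± 0.97 (SE; adjusted p = 0.00086), the largest error of the 48 genes; with only the libraries compared, the call was lost (adjusted p = 0.0884). FLNC, the muscle filamin, was at 96.9 FPKM at day 40 and 137 FPKM at day 50, and exceeded srNMPs by 5.72 ± 0.43 (SE; adjusted p = 6.41e-05) and neurons by 2.90 ± 0.43 (SE; adjusted p = 0.00162). The calsarcins, which tether calcineurin to alpha-actinin, were at 18.8 FPKM at day 40 and 23 FPKM at day 50 for MYOZ1 (fast) and at 16.9 FPKM at day 40 and 36.9 FPKM at day 50 for MYOZ2 (slow and cardiac). MYOZ2 was at 0 in 11 of the 13 other libraries, with 0.0258 FPKM at most, and MYOZ1 at 0.0652 to 1 FPKM (median 0.278). All 7 other genes of the group were called higher than in srNMPs, as were 18.2% of all genes tested. These 7 were LDB3, SYNPO2L, TCAP, XIRP1, XIRP2, CSRP3 and PDLIM3. They spanned 2.83 to 49.4 FPKM in muscle, and the muscle LIM protein gene CSRP3 was at 0 in 11 of the 13 other libraries. Of the 13 genes of the whole group, 6 passed the filter only through the muscle libraries and so had to differ. They were MYOZ2, LDB3, SYNPO2L, XIRP1, XIRP2 and CSRP3.

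All 6 genes of assembly and turnover were called higher in both muscle comparisons, against 18.2% (srNMPs) and 14.6% (neurons) of all genes tested. Of the 6, 4 passed the filter only through the muscle libraries and so had to differ. KLHL41, which with KLHL40 keeps nebulin and leiomodin stable, was the highest at 301 FPKM at day 40 and 472 FPKM at day 50, against 0.0705 to 1.05 FPKM (median 0.3) elsewhere, a difference to srNMPs of 8.30 ± 0.23 (SE; adjusted p = 2.53e-07). SMYD1, a muscle methyltransferase that assists myosin assembly, was at 37.1 FPKM at day 40 and 63 FPKM at day 50 and at 0 to 0.0654 FPKM (median 0.00667) elsewhere (adjusted p = 2.38e-08 against srNMPs). UNC45B, the myosin chaperone, was at 35.4 FPKM at day 40 and 57.4 FPKM at day 50 and listed at 0 in all 4 srNMP libraries (adjusted p = 2.38e-08). KLHL40 was at 16 FPKM at day 40 and 30.1 FPKM at day 50. The muscle protease CAPN3 and the ubiquitin ligase TRIM63 were low, at 2.57 FPKM at day 40 and 3.51 FPKM at day 50, and at 5.31 FPKM at day 40 and 11.3 FPKM at day 50.

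Levels within muscle thus spanned a wide range. ACTC1, MYLPF, TPM2 and MYL1 made up 56.8% of the summed FPKM of the 49 genes at day 40 and 56.1% at day 50. In all, 19 genes were at 100 FPKM or more in both muscle libraries, and 10 had a mean under 10 FPKM. At day 40, 9 of the genes were among the 100 most abundant of the library, and at day 50 there were 16.

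Fast and slow forms were expressed together, in shares that differed from family to family. The first gene of a pair, the fast form (or for actin the skeletal form), made up 49.4% of the summed TNNT3 and TNNT1 at day 40 and 55.8% at day 50. For troponin I the fast share was 60.4% and 63.6%, and for troponin C it was 34.0% and 50.3%, the largest increase of the 9 pairs. Within their pairs, the light chains were almost wholly of the fast form: MYLPF made up 100% and 99.998% of its pair with MYL2, and MYL1 made up 99.5% and 99.7% of its pair with MYL3. Among all 5 alkali light chains, however, MYL1 made up 44.6% and 47.3%, MYL4 15.8% and 18.4%, MYL6B 10.7% and 13.9%, and MYL6, a non-muscle and smooth muscle chain, 28.6% and 20.2%. For alpha-actinin and actin the first gene was a small part: ACTN3 made up only 1.42% and 1.48% of its pair with ACTN2, and ACTA1 only 6.83% and 8.03% of the sarcomeric actins. MYBPC2 made up 31.9% and 38.8% of its pair with MYBPC1. MYOZ1 made up less at day 50, at 52.7% of its pair with MYOZ2 at day 40 and 38.4% at day 50. With 1 library a day there is no test of these shifts. Outside muscle, the actin pair reached 1 FPKM in all 13 libraries, where ACTA1 made up 2.43% to 25.5%, and the troponin T pair in 5, where TNNT3 made up 0.265% to 17.6%.

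**Figure D3:**
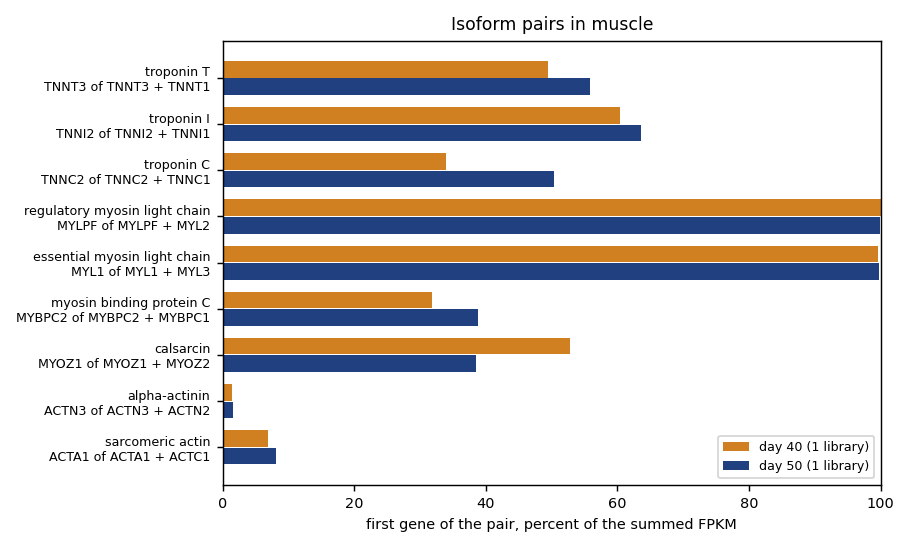
Share of the first (fast, or for actin skeletal) gene in the summed FPKM of 9 isoform pairs, in percent, at day 40 (orange) and day 50 (blue); each bar is 1 library, so there are no error bars. Regulatory and essential light chains stand at 99.5% or more, alpha-actinin at 1.42% and 1.48%, and troponin C moves from 34.0% to 50.3%.

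Between the muscle libraries, most sarcomere genes were moderately higher at day 50. Of the 48 genes, 45 were higher at day 50 and 3 (TPM1, MYL3, XIRP1) lower, where 61.1% of all genes were higher. Their median difference on the log2(FPKM + 1) scale was 0.53, against 0.062 for all genes tested. For the 47 genes at 1 FPKM or more on both days, the ratio of day 50 to day 40 ran from 0.774 (XIRP1) to 2.26 (TMOD1) with a median of 1.46, and 30 of the 47 lay between 1.3 and 1.8, as did 12.3% of all 11178 such genes. A difference of 2-fold on the log2(FPKM + 1) scale was passed upward by 3 of the 48, MYOZ2 (1.09), TMOD1 (1.07) and TNNC2 (1.05), against 0.722% of all genes, and downward by 0, against 0.835% of all. The nearest below that threshold were MYBPC2 (0.97) and TRIM63 (0.96), and above it TNNC2 and TMOD1. At pseudocount 0.1, 5 genes passed, with TRIM63 and XIRP2 added; with libraries rescaled to equal totals or quantile normalized, 2 passed, MYOZ2 and TMOD1, and the latter put 44 higher and 4 lower. At the other end, TNNC1 had a ratio of 1.06, DES of 1.15 and TNNT1 of 1.16.

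Other cell markers moved between the same libraries. Of 8 fibroblast and connective tissue markers, 7 were lower at day 50, and so were 6 of 7 smooth muscle markers, whose sum went from 566 to 357 FPKM, and 14 of 14 non-muscle counterparts of the sarcomere genes, from 6622 to 5136 FPKM. Of the myogenic regulators 7 of 8 were higher at day 50, and of the skeletal fibre genes 8 of 8. Of the 10 neuron markers, 5 were higher and 5 lower at day 50, and their sum was 232 and 294 FPKM. Whether the day difference of the sarcomere genes reflects these shifts was not tested.

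**Figure D4:**
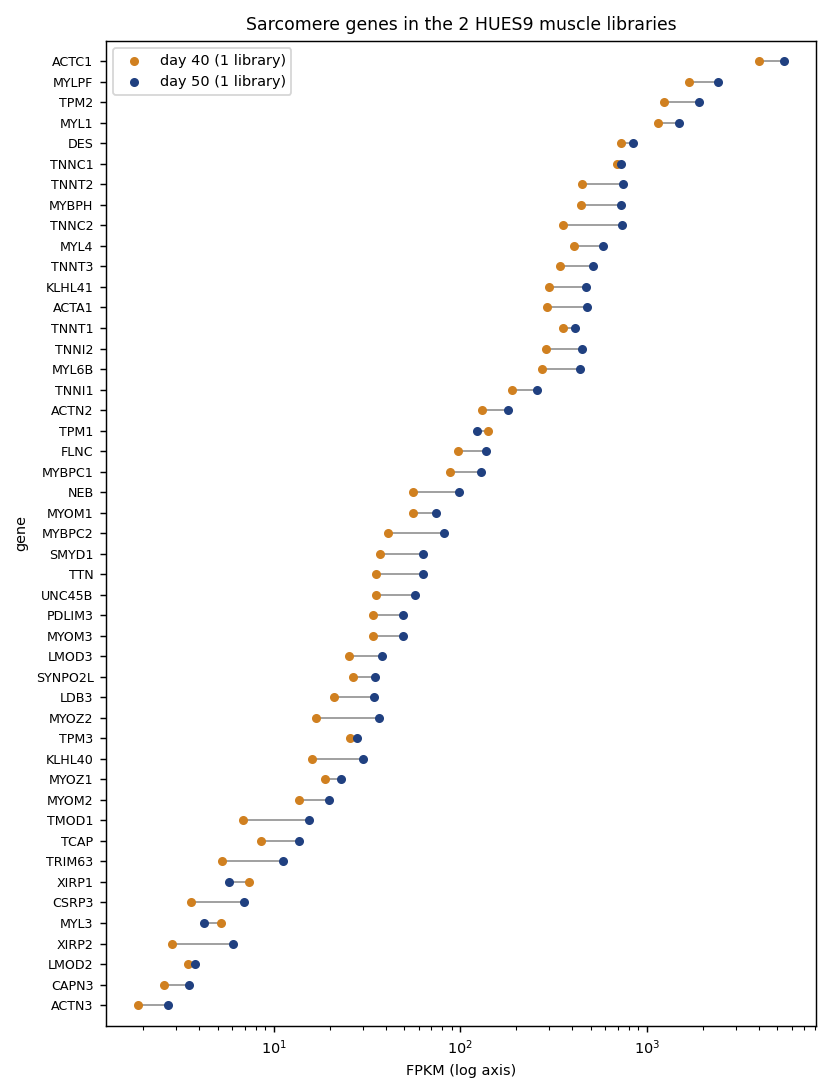
FPKM (log axis) of the 47 sarcomere genes of at least 1 FPKM on both days, in the day 40 (orange) and day 50 (blue) muscle library, joined by a line and ordered by mean level. The blue point lies to the right for 44 of the 47; TPM1, MYL3 and XIRP1 are the 3 with the reverse order.

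Outside muscle, 12 of the 49 genes reached 5 FPKM in at least 1 library, 12 peaked between 1 and 5 FPKM, and 25 stayed under 1 FPKM in all 13 libraries. In neurons compared with srNMPs, 11 were higher and 5 lower, against 28.8% higher and 23.2% lower among all genes, and the median difference was 0.028 against 0.053 for all genes. The largest rise was that of PDLIM3, an actinin-associated LIM protein gene. Its srNMP values were 0.678 and 0.369 FPKM in the H1 srNMPs at passages 8 and 25 and 0.616 and 2.29 FPKM in the HUES9 srNMPs. In neurons it was at 18.6 and 29.8 FPKM in H1 and HUES9 dorsal neurons and 52.1 and 51.3 FPKM in H1 and HUES9 ventral neurons, overlapping the 34.1 and 49.4 FPKM of muscle. The log2 difference between neurons and srNMPs was 4.27 ± 0.38 (SE; adjusted p = 0.000305); between muscle and neurons it was -0.07 ± 0.50 (SE; adjusted p = 0.918) and changed sign in 6 of 14 alternatives. In the neuron progenitors PDLIM3 was at 1.02 and 0.666 FPKM in H1 and HUES9 RABC cells and 5.94 and 26.5 FPKM in H1 and HUES9 RASS cells, higher in both RASS libraries than in both RABC libraries, and as a whole they did not pass against srNMPs (adjusted p = 0.0896).

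FLNC also rose in neurons, by 2.82 ± 0.34 (SE; adjusted p = 0.000725), from srNMP values of 0.719 and 2.39 FPKM in the H1 srNMPs at passages 8 and 25 and 0.471 and 3.52 FPKM in the HUES9 srNMPs. Its neuron values were 9.37 and 9.66 FPKM in H1 and HUES9 dorsal neurons and 29.5 and 27.3 FPKM in H1 and HUES9 ventral neurons, so both ventral libraries were above both dorsal ones; the same order held for PDLIM3, and the difference between dorsal and ventral was not tested. In the progenitors FLNC was at 10.2 and 2.21 FPKM in H1 and HUES9 RABC cells and 2.68 and 1.83 FPKM in H1 and HUES9 RASS cells. MYOM2 stood at 0.732 and 0.701 FPKM in the H1 srNMPs at passages 8 and 25 and 0.472 and 1.17 FPKM in the HUES9 srNMPs, and at 2.5 and 10.9 FPKM in H1 and HUES9 dorsal neurons and 5.38 and 4.77 FPKM in H1 and HUES9 ventral neurons, a rise of 1.84 ± 0.34 (SE; adjusted p = 0.00388). The other 8 higher genes, ACTN2, CAPN3, MYL1, MYLPF, MYOM1, TCAP, TMOD1 and TNNI1, had neuron means of at most 1.72 FPKM. The calls of MYLPF (5 of 14 alternatives), MYL1, TCAP and TNNI1 (4 each) and ACTN2 and MYOM1 (1 each) were lost in some alternatives.

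The 5 lower genes included the tropomyosins TPM2 and TPM3. TPM2 went from 123 and 183 FPKM in the H1 srNMPs at passages 8 and 25 and 159 and 99 FPKM in the HUES9 srNMPs to 29.2 and 36.2 FPKM in H1 and HUES9 dorsal neurons and 35 and 13.2 FPKM in H1 and HUES9 ventral neurons, with no overlap, a log2 difference of -2.33 ± 0.30 (SE; adjusted p = 0.00106). TPM3 had a log2 difference of -1.30 ± 0.12 (SE; adjusted p = 0.00034), also with no overlap. TPM1 stood at 12.9 to 26.3 FPKM in srNMPs and 8.53 to 34.6 FPKM in neurons and was not called (log2 difference -0.012 ± 0.28 SE, adjusted p = 0.978). TNNC1 fell from a mean of 3.35 to 0.351 FPKM, a log2 difference of -1.52 ± 0.38 (SE; adjusted p = 0.0142); the call was lost without H1 srNMPs at passage 25 or without HUES9 ventral neurons (adjusted p up to 0.0581). MYL6B fell only slightly, from a mean of 148 to 115 FPKM, a log2 difference of -0.35 ± 0.12 (SE; adjusted p = 0.0413) that lost its call with equal totals and turned to 0.0090 with quantile normalization, and ACTA1 from 0.827 to 0.248 FPKM, a log2 difference of -0.52 ± 0.16 (SE; adjusted p = 0.0329). ACTA1 lost its call in 7 of 14 alternatives, among them without any 1 neuron library or either H1 srNMP library, and MYL6B lost its in 9 besides the one that turned its direction. Of the 14 non-muscle counterparts, 8 were lower in neurons and 0 higher, and 4 of 7 smooth muscle markers were lower, ACTA2 (smooth muscle actin) among them at -2.07 ± 0.56 (SE; adjusted p = 0.0183).

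Within the srNMPs, DES, ACTC1, TPM2 and TPM3 each had their 2 highest values in the H1 library at passage 25 and the HUES9 library at passage 8. ACTC1 was at 3.86 and 12 FPKM in the H1 srNMPs at passages 8 and 25 and 8.83 and 4.12 FPKM in the HUES9 srNMPs, and in neurons at 2.29 and 3.03 FPKM in H1 and HUES9 dorsal neurons and 2.92 and 5.65 FPKM in H1 and HUES9 ventral neurons; the difference did not pass (log2 difference -0.80 ± 0.41 SE, adjusted p = 0.135). ACTA2 was at 8.51 and 21.7 FPKM in the H1 srNMPs at passages 8 and 25 and 40.4 and 17.6 FPKM in the HUES9 srNMPs in the same cultures, while MYOD1, a master regulator of the muscle lineage, was listed at 0 in all 4. Passage and line do not order these values: the high library was the later passage in H1 and the earlier one in HUES9.

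In the neuron progenitors compared with srNMPs, 1 of the 48 genes was called, against 3.43% of all genes. It was MYL6B, with a log2 difference of -0.60 ± 0.12 (SE; adjusted p = 0.0475), at 90.5 and 94.2 FPKM in H1 and HUES9 RABC cells and 111 and 94.2 FPKM in H1 and HUES9 RASS cells, against 133 and 149.7 FPKM in the H1 srNMPs at passages 8 and 25 and 176 and 135 FPKM in the HUES9 srNMPs. MYL6B lost this call in 9 of 14 alternatives (adjusted p up to 0.201), including the removal of any 1 progenitor library or of any 1 srNMP library other than H1 at passage 8. The count of called genes was 0 in 7 alternatives, among them those without H1 or HUES9 srNMPs at passage 25, HUES9 srNMPs at passage 8, H1 RABC or HUES9 RASS. It was 4, all lower, without H1 srNMPs at passage 8 and 2, both higher, without HUES9 RABC. The count over all genes moved as well. It was 484 in the main fit, 2281 without H1 srNMPs at passage 8 and 371 without HUES9 RABC. In the alternatives with 0 sarcomere genes called, it ran from 0 to 370. MYBPC1 stood out in 1 group, at 7.15 and 1.17 FPKM in H1 and HUES9 RABC cells and 0.0265 and 0.0555 FPKM in H1 and HUES9 RASS cells, where all srNMP and neuron libraries and the ESCs were at 0.11 FPKM or less; the comparison of all progenitors with srNMPs did not pass (log2 difference 1.02 ± 0.34 SE, adjusted p = 0.131).

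Against the single ESC library, 1 of the 48 genes was higher in srNMPs and 3 were lower, against 8.73% higher and 7.93% lower among all genes. TNNT1 was at 30.0 FPKM in the ESCs and at 0.846 and 1.36 FPKM in the H1 srNMPs at passages 8 and 25 and 0.633 and 0.69 FPKM in the HUES9 srNMPs, a log2 difference of -4.19 ± 0.25 (SE; adjusted p = 5.43e-05). TNNC2 was at 1.95 FPKM in the ESCs and at most 0.42 FPKM in srNMPs (log2 difference -1.40 ± 0.25 SE, adjusted p = 0.0116), and ACTN3 at 1.75 FPKM in the ESCs and at most 0.229 FPKM (log2 difference -1.26 ± 0.14 SE, adjusted p = 0.00119). MYL6B was at 87 FPKM in the ESCs and higher in srNMPs by 0.76 ± 0.19 (SE; adjusted p = 0.0396), a call lost in 3 of 10 alternatives, among them without H1 or HUES9 srNMPs at passage 25. The highest values of TPM1 and TPM3 outside muscle, 46.8 and 78.3 FPKM, were also those of the ESCs, but the differences to srNMPs did not pass (adjusted p = 0.0555 and adjusted p = 0.0653). Fitted with the srNMP and ESC libraries alone, of these 4 only TNNT1 was called (adjusted p = 0.043).

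**Figure D5:**
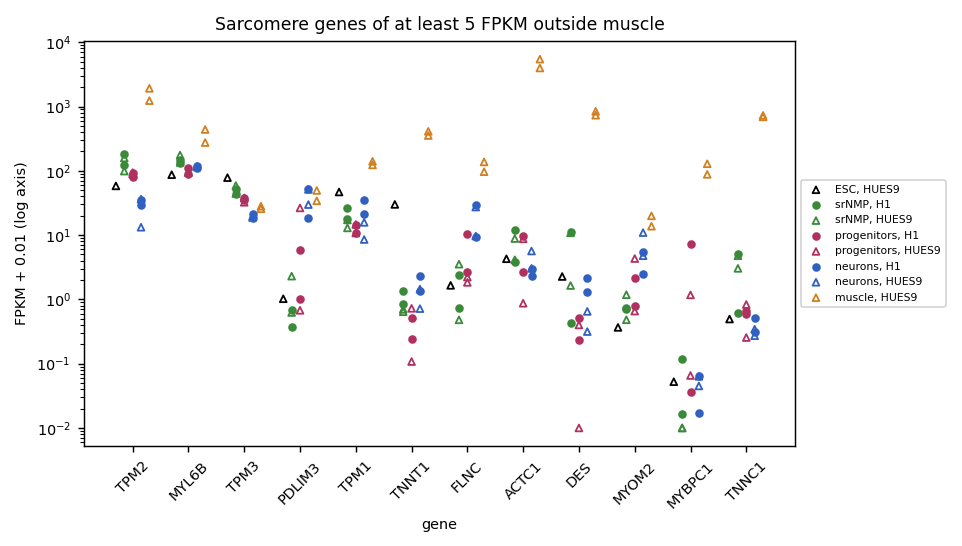
FPKM + 0.01 (log axis) of the 12 sarcomere genes that reached 5 FPKM in a non-muscle library; each point is 1 library, coloured by cell state and filled for H1 or open for HUES9. PDLIM3 in neurons overlaps muscle, TPM3 in muscle lies under the srNMPs, and TNNT1 in the ESC library (30.0 FPKM) lies above all other non-muscle libraries.

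The 2 cell lines did not differ detectably in these genes: 0 of 48 were called between HUES9 and H1, as were 0% of all genes (limma), and 1 of them and 512 of all genes had an unadjusted p under 0.05. No sarcomere gene was called for a different neuron response by line (0 of 48, against 0% of all genes, with 1 of them and 656 of all genes at an unadjusted p under 0.05). That test was a separate fit with 1 mean per state and line. Dorsal and ventral neurons, both srNMP passages and both progenitor protocols thus counted as its spread. It could therefore miss a difference between the lines. Muscle was made from HUES9 alone, so these comparisons cover the other states only.

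Of 29 further sarcomere genes tested, of which 8 passed the filter only through muscle and so had to differ, 22 were higher and 2 lower in muscle than in srNMPs, and 22 were higher and 1 lower than in neurons. Of all genes tested, 18.2% were higher and 31.6% lower in muscle than in srNMPs, and 14.6% and 31.9% than in neurons. MYOT (myotilin, a Z-disc protein) was at 52.2 FPKM at day 40 and 81.7 FPKM at day 50, and SMPX, a small muscle protein, at 154 FPKM at day 40 and 220.2 FPKM at day 50; both are among those 8. The small heat shock protein gene CRYAB, at 2.50 FPKM at most elsewhere, exceeded srNMPs by 5.96 ± 0.35 (SE; adjusted p = 1.63e-05). Between the muscle days, 18 of the 29 were higher at day 50 and 11 lower, where 61.1% of all genes were higher. Their median log2 difference was 0.14, against 0.062 for all genes tested. Of 14 non-muscle counterparts, 1 was higher and 3 were lower in muscle than in srNMPs: MYL12B was higher, by 0.79 ± 0.26 (SE; adjusted p = 0.0378), and the cytoplasmic actins ACTB and ACTG1 and the tropomodulin TMOD3 were lower, ACTB with -0.91 ± 0.20 (SE; adjusted p = 0.00756) and ACTG1 with -1.10 ± 0.18 (SE; adjusted p = 0.00256). Against neurons, 6 of the 14 were higher and 1 lower.

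The label of the muscle libraries was read against marker genes. For all genes tested, the shares were 18.2% higher and 31.6% lower against srNMPs, and 14.6% higher and 31.9% lower against neurons. All 8 skeletal fibre genes tested, 4 of which passed the filter only through muscle, were higher than in srNMPs, CKM (muscle creatine kinase) at 118 FPKM at day 40 and 296 FPKM at day 50, the embryonic heavy chain MYH3 at 1304 FPKM at day 40 and 1952 FPKM at day 50, and the perinatal MYH8 at 153 FPKM at day 40 and 365 FPKM at day 50. The heavy chains of adult fast fibres, MYH1 and MYH2, did not exceed 0.42 FPKM. Among the myogenic regulators 6 of 8 were higher (4 of the 8 passed only through muscle), MYOD1 at 67.3 FPKM at day 40 and 126 FPKM at day 50, and MYOG (myogenin), the largest change, at 312 FPKM at day 40 and 539 FPKM at day 50. Of 12 cardiac genes, GATA4, NPPB, MYL7 and MYBPC3 were listed at 0 in both muscle libraries, NKX2-5 was at 1.59 FPKM at day 40 and 1.59 FPKM at day 50, and 1 of the 6 tested was higher than in srNMPs, RYR2 at 2.23 FPKM at day 40 and 6.24 FPKM at day 50. The summed cardiac list was 4.70 FPKM at day 40 and 8.91 FPKM at day 50, within the 0.335 to 16.7 FPKM of the other libraries. In that sum NPPA alone reached 12.9 FPKM in neurons, against at most 0.21 FPKM in muscle. Of 7 smooth muscle genes tested, 5 were higher and 1 lower than in srNMPs, ACTA2 at 400.0 FPKM at day 40 and 296 FPKM at day 50, and all 8 fibroblast and connective tissue genes were higher. Of these lists, 1 smooth muscle gene and 2 fibroblast and connective tissue genes passed the filter only through muscle. Of 10 neuron markers, 8 were lower and 0 higher in muscle than in neurons, TUBB3 at 7.38 FPKM at day 40 and 3.85 FPKM at day 50 in muscle, while DCX was at 43.8 FPKM at day 40 and 76.3 FPKM at day 50, and NEFM at 119 FPKM at day 40 and 151 FPKM at day 50. Against srNMPs, only 2 of the 10 neuron markers were lower in muscle and 1 was higher. Of 6 glia genes tested, 1 was lower and 0 higher than in srNMPs, and of 6 pluripotency genes likewise 1 and 0.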

How the data were processed

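Libraries were made with a stranded mRNA kit and read on a NovaSeq instrument, per the labels' protocols. Per the submitters' processing notes, the tools were Cufflinks, HTSeq, HISAT2 and Trimmomatic and the build hg18; versions, strand setting and gene lengths are not given in the sources used here. The authors deposited FPKM per gene symbol, used as listed; 1 column of values matched no sample and was not used. Genes of at least 1 FPKM in at least 1 library (14129 of 17999) were fitted on the log2(FPKM + 1) scale, so folds of low genes are understated. The fit (limma 3.58.1, R 4.3.3, trend; 9 group means and a cell line term; 5 residual degrees of freedom) used all 15 libraries, with two-sided tests and Benjamini-Hochberg adjustment over all genes. The line term pairs libraries by the cell line of the labels; deviations of paired groups correlated at -0.53 to 0.38 (median 0.10, 15 pairs). The libraries of a paired group came from different cell lines, with 1 library per line. The errors thus reflect the spread between lines that the line term leaves, and variation between cultures of a line was not measured. Muscle and ESC groups hold 1 library each and add nothing to the spread. The fit was also run on simulated data. There the muscle libraries were given the spread of the other groups, so that run cannot check variation between muscle cultures. Promoter windows come from RefSeq (GRCh38.p14), matched by gene ID for 35 of 49 genes.

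Genes given with values in the text are both genes of each isoform pair, TTN, NEB, the 3 most abundant in muscle per functional group, all of at least 5 FPKM outside muscle, and those past or nearest to 2-fold between the muscle days; of other lists, the first gene and the largest called changes. The members and lists were chosen with earlier results of these data known. Alternatives were pseudocount 0.1, no filter, equal totals, quantile normalization, no line term, only the libraries compared, HUES9 only, both muscle days as 1 group and leaving out each library.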

Additional observations from a re-analysis of the deposited data

Results flagged for a closer look

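In 41 sets of 4 libraries (1 gene in srNMPs, neuron progenitors or neurons, with at least 1 FPKM in 1 of them) examined for a single library far from the rest, 1 was found: TCAP, which encodes the titin cap protein telethonin, was at 1.18 FPKM in the H1 RASS neuron progenitors, against 0.559 to 0.651 FPKM in the other 3 progenitor libraries. Chance alone marks about 1 in 20 such groups.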

How the results depend on the processing

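The counts of called sarcomere genes in muscle against srNMPs, muscle against neurons and neurons against srNMPs stayed within 1.5 times their value under every alternative run. For neuron progenitors against srNMPs the count of 1 became 2 at pseudocount 0.1 and 0 with no filter or only the libraries compared. Over all genes, the count of 484 became 706 at pseudocount 0.1, 191 with no filter and 0 with only the libraries compared. For srNMPs against ESCs the count of 4 became 1 with only those libraries, and that over all genes went from 2354 to 365. The cause was not tested. Past 2-fold between the muscle days, 5 genes were counted at pseudocount 0.1 in place of 3. Without the replicate block (the cell line term) the counts were 47 for muscle against srNMPs, 46 against neurons, 20 for neurons against srNMPs, 1 for progenitors and 6 for ESCs. The counts over all genes were then, in the same order, 7390, 7178, 7524, 772 and 2760. Leaving out 1 library at a time gave 47 to 47 called genes for muscle against srNMPs, 44 to 45 against neurons, 11 to 15 for neurons against srNMPs, 0 to 4 for progenitors, 3 to 6 for ESCs and 0 to 0 between lines; the fit without the single ESC library could not be run. Quantile normalization moved the fast shares of troponin I to 59.1% (day 40) and 62.0% (day 50), of myosin binding protein C to 33.6% (day 40) and of actin to 9.58% (day 40) and 11.2% (day 50). Among uncalled genes, PDLIM3 in muscle against neurons changed sign, to 0.24 with quantile normalization, 0.23 with no replicate block, 0.067 with only the libraries compared or only HUES9, 0.052 without H1 ventral neurons and 0.19 without day 40 muscle (range over libraries left out -0.33 to 0.19); TMOD4 in muscle against srNMPs changed to -0.015 without HUES9 srNMPs at passage 8 (range -0.015 to 0.53). In neurons against srNMPs, MYL6B changed to 0.0090 and TNNT1 to -0.0016 with quantile normalization. Equal totals moved the median of all genes from -0.22 to -0.014 in muscle against srNMPs and from 0.053 to 0.29 in neurons against srNMPs. Without counts, values near 0 cannot be given a counting error.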
